A study of Mus musculus with 9 samples.

Results

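The 10 genes described here encode transcription factors that are known for specifying epithelial identity: the grainyhead-like factors *Grhl1*, *Grhl2* and *Grhl3*, the zinc finger repressors *Ovol1* and *Ovol2*, the ETS factors *Elf3*, *Elf5* and *Ehf*, and the Krüppel-like factors *Klf4* and *Klf5*. They were chosen by gene symbol, and all 10 were found among the 52459 symbols of the transcript tables. RNA-Seq was performed in NMuMG cells, an immortalized mouse mammary gland line described as epithelial, under 3 conditions with 3 libraries each. EPR cells overexpress the long noncoding RNA EPR (*BC030870*), EPRSTOPE cells overexpress a point mutant of EPR that cannot be translated into its small peptide, and mock cells carry the empty vector. All 3 are pools of stable transfectants obtained with a pBICEP-based vector and G418 selection. The methods call the 3 libraries of a condition biological triplicates, and whether they were made from different pools is not given, so p-values measure the spread between these libraries.

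Grainyhead-like factors bind and open enhancers of junction genes such as *Cdh1* in many epithelia, and OVOL factors repress genes that drive the epithelial to mesenchymal transition (EMT). *Elf3*, *Elf5* and *Ehf* form the epithelium-restricted branch of the ETS family, in which *Elf5* is the factor of the milk-producing alveolar lineage of the mammary gland. *Klf4* and *Klf5* are zinc finger factors with opposing roles in epithelia, *Klf4* being known for barrier formation and cell cycle exit and *Klf5* for proliferation of progenitors.

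Library totals ran from 5972457 to 11876435 estimated counts. Libraries of one condition differed by more than sampling noise (chi-square per degree of freedom 4.63 to 9.59), so that none was a copy of another. Whether they came from separate cultures cannot be read from these values. EPR RNA was at 0 to 2 counts in the mock libraries, at 214 to 271 counts in the EPR libraries and at 28 to 39 counts in the EPRSTOPE libraries, a ratio of 6.07 between EPR and EPRSTOPE (exact 95% interval 4.92 to 7.55, counting error only). The peptide mutation and the amount of transgene RNA therefore cannot be told apart in EPR against EPRSTOPE. Of 8 mammary epithelial markers, 4 (*Epcam*, *Cldn3*, *Cldn4*, *Cldn7*) had no count in mock cells, where *Cdh1*, the gene for E-cadherin, averaged 0.840 CPM. CPM denotes counts per 1000000 counts of the library, normalized by TMM. Summed over the 8 markers, the level was 3676 to 4142 CPM in mock, 9448 to 10560 CPM in EPR and 10650 to 10990 CPM in EPRSTOPE libraries. Most of this sum came from *Krt8* (2101, 5247 and 5960 CPM in mock, EPR and EPRSTOPE cells) and *Krt18* (1521, 3734 and 4126 CPM). *Epcam*, *Cdh1* and *Krt19* averaged more in EPR (3.62, 555 and 582 CPM) than in EPRSTOPE cells (0.109, 402 and 384 CPM). In mock cells 3 of the 8 markers, the keratins *Krt8*, *Krt18* and *Krt19*, averaged at least 1 CPM. Other epithelial genes were present in mock cells, with the junction gene *F11r* at 116 CPM, the protease inhibitor gene *Spint2* at 21.1 CPM and the splicing factor gene *Esrp2* at 11.3 CPM. Intestinal markers moved with the conditions as well. The 5 of them together were at 8.60 to 11.5 CPM in mock, 194 to 207 CPM in EPR and 336 to 372 CPM in EPRSTOPE libraries. *Cdx2*, *Lgals4* and *Cdh17* averaged more in EPRSTOPE than in EPR cells, with *Cdh17* at 230 and 104 CPM. *Vil1* went the other way, at 42.2 CPM in EPR, 8.30 CPM in EPRSTOPE and 3.4 CPM in mock cells. *Cdx1* had no count. The part of these markers in the results below was not tested.

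Sequence upstream of the start site was available for 6 of the 10 genes (RefSeq, GRCm38.p6). The following stretches belong to the genes with a changed level for which a window exists (for *Grhl1* at the start of the transcript Grhl1-202), and to *Grhl3*, which was near 0 in all libraries and carries an E-box next to its start. Only bases outside every annotated exon of the gene are shown, 5′ to 3′ on the strand of the gene, and capitals mark CACCTG, the reverse complement of the E-box CAGGTG that ZEB and SNAI repressors bind.

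Elf3, chr1:135258569-135258722, minus strand: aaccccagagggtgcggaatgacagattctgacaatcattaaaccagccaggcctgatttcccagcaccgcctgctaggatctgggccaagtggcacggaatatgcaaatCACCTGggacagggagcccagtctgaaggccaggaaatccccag
Klf4, chr4:55532476-55532725, minus strand: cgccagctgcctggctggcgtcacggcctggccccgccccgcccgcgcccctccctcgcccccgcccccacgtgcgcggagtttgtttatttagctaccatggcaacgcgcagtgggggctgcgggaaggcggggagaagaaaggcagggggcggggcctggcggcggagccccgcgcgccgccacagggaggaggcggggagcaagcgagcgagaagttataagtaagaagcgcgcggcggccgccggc
Grhl1, chr12:24572037-24572282, plus strand: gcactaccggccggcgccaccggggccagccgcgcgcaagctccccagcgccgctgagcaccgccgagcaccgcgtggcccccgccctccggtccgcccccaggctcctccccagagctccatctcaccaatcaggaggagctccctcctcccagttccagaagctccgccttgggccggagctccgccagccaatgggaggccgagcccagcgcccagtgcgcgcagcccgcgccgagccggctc
Grhl3, chr4:135573633-135573882, minus strand: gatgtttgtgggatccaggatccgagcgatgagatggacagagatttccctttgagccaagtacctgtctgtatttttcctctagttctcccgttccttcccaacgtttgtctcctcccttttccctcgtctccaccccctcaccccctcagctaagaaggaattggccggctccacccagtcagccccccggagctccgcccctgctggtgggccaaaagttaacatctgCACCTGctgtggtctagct

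In the 250 bases before the RefSeq start, *Elf3* held the E-box once, at 140 to 135 bases before the start, and *Grhl3* once, at 19 to 14 bases. The distal start of *Elf5* held it 3 times. CAGGTG occurred on either strand in 17.2% of 32851 promoter windows of the same length. The ETS motif GGAAGT occurred in 19.7% of windows and, among these genes, only before *Ovol2*. The grainyhead-like motif AACCNGTT (1.79% of windows) and the KLF motifs GGGTGTGG (3.2%) and GGGCGTGG (4.79%) were found in none of the 6 genes, and *Klf4* and *Grhl1* held none of the 5 motifs. Motifs were searched on both strands, and a match is a description of these letters, not of binding.

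In mock cells the 10 genes covered a wide range of levels. Between genes, levels were compared per length as deposited TPM (transcripts per 1000000 transcripts, summed over the transcripts of a gene). *Klf4* was highest at 17.6 ± 2.6 TPM (SD, n = 3), followed by *Klf5* at 8.995 ± 1.905 TPM and *Elf3* at 5.47 ± 1.94 TPM. The libraries of *Klf5*, at 7.40 to 11.1 TPM, and of *Elf3*, at 3.46 to 7.32 TPM, did not overlap. *Grhl1* was at 1.33 ± 0.38 TPM, *Elf5* at 0.435 ± 0.366 TPM, *Ehf* at 0.296 ± 0.339 TPM and *Grhl2* at 0.141 ± 0.133 TPM. The library ranges of the last 3 overlapped. Among the 15370 genes tested, *Klf4* lay at percentile 63.2 of mock TPM and *Ehf* at percentile 5.73.

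*Klf4*, *Klf5* and *Elf3* kept this order of mean TPM in EPR cells, and in EPRSTOPE cells the mean of *Elf3* lay above that of *Klf5*. In EPR cells *Klf4* was at 26.6 ± 2.5 TPM, *Klf5* at 13.8 ± 2.6 TPM, *Elf3* at 9.95 ± 1.35 TPM and *Ehf* at 5.87 ± 1.49 TPM. In EPRSTOPE cells *Klf4* was at 34.8 ± 4.2 TPM, *Elf3* at 16.0 ± 2.2 TPM, *Klf5* at 13.2 ± 1.1 TPM and *Ehf* at 0.928 ± 0.420 TPM (SD, n = 3 each). The library ranges of *Elf3* and *Klf5* overlapped in both overexpressing conditions on this scale. Within each EPRSTOPE library *Elf3* was above *Klf5* (15.5, 18.4 and 14.1 TPM beside 13.1, 14.3 and 12.2 TPM). In EPR cells the order was not the same in every library, with *Elf3* above *Klf5* in library 208 (11.5 and 10.9 TPM) but not in 206 and 207. *Ehf* moved from percentile 5.73 of the tested genes in mock cells to percentile 42.4 in EPR and 17.8 in EPRSTOPE cells.

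**Figure D1:**
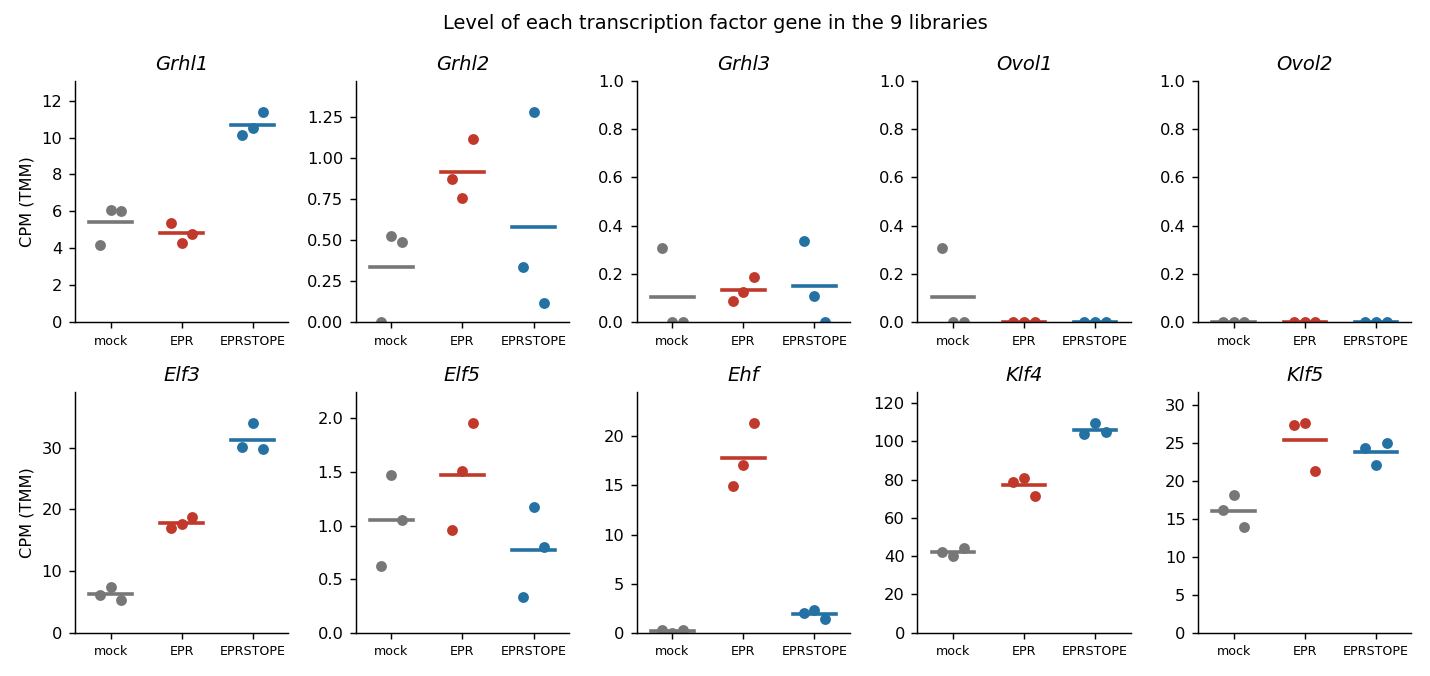
CPM normalized by TMM in every library (points) with the mean of 3 libraries (lines) for the 10 genes, each on its own linear axis from 0. The 3 conditions do not overlap for *Elf3*, *Ehf* and *Klf4*, *Grhl1* stands apart only in EPRSTOPE cells, and *Ovol2* is at 0 in all 9 libraries. The share of all tested genes without overlap is not given.

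The question of the design is how much of the response to EPR needs the RNA and how much the peptide. In EPR against mock, 4 of the 10 genes rose (*Ehf*, *Elf3*, *Klf4*, *Klf5*), none fell, 2 did not pass the test and 4 were below the filter. A gene was called when the adjusted p was below 0.01 and the log2 fold change exceeded 0.5 in size, by the quasi-likelihood test of edgeR, adjusted by Benjamini-Hochberg over the 15370 genes that reached 1 CPM in 3 or more libraries. The background was 28.1% of all tested genes called, 15.2% higher and 12.9% lower. In EPRSTOPE against mock the same 4 genes and *Grhl1* rose, 5 in all with none lower, beside 28.0% of all genes called, 15.6% higher and 12.4% lower. Between EPR and EPRSTOPE, 1 gene (*Ehf*) was higher in EPR and 2 (*Elf3*, *Grhl1*) were lower, beside 13.2% of all genes called, 6.86% higher and 6.35% lower. The median log2 fold change of the 6 tested genes was 0.76, 1.14 and -0.18 in the 3 comparisons, beside -0.01, -0.04 and 0.01 over all tested genes. No tested gene of the 10 was lower against mock at an unadjusted p below 0.05 in either comparison, and limma-voom and DESeq2 also called 0 of them lower. *Ehf* passed the filter only through the overexpressing libraries, and the comparisons share libraries. Where libraries are said not to overlap, this is a description, because the share of all tested genes without overlap is not given. The libraries of the ETS gene *Ets1* did not overlap between EPRSTOPE and mock either, at an uncalled log2 fold change of 0.09 (adjusted p = 0.2). In these bulk samples a change in the number of cells that express a gene and a change in its RNA per cell cannot be told apart.

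**Figure D2:**
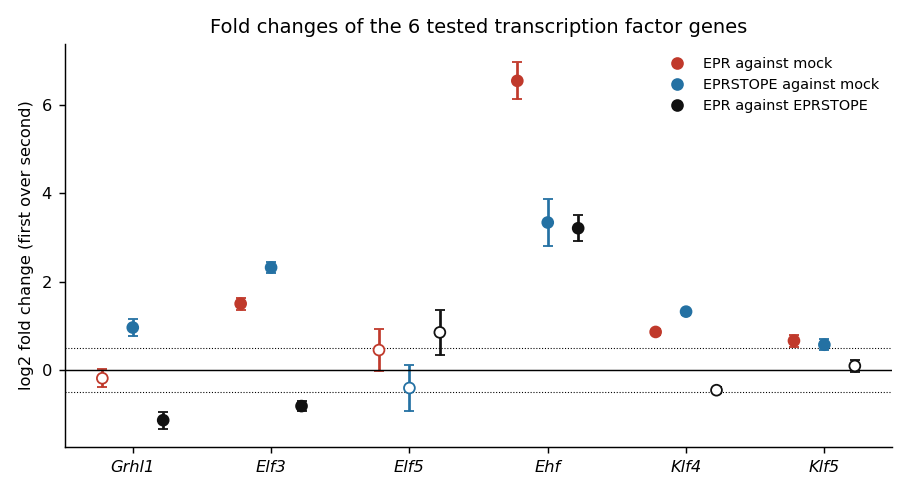
Log2 fold changes with standard errors of the 6 tested genes in the 3 comparisons (first condition over second). Filled points passed an adjusted p under 0.01 beyond the dotted lines at a log2 fold change of 0.5, and open points did not, so that *Elf5* is open throughout while *Ehf* reaches 6.55 in EPR against mock.

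*Ehf* (ENSMUSG00000012350, GRCm38 chromosome 2, 103263433 to 103303278, minus strand) encodes an ETS factor of glandular and surface epithelia. It had 2, 0 and 3 counts in the mock libraries, 172, 136 and 229 counts in the EPR libraries and 12, 22 and 12 counts in the EPRSTOPE libraries. Every overexpressing library was above every mock library, and every EPR library was above every EPRSTOPE library. Its mean level (± SD, n = 3 each) was 0.184 ± 0.163 CPM in mock cells, 17.8 ± 3.2 CPM with EPR and 1.92 ± 0.49 CPM with EPRSTOPE. The log2 fold change was 6.55 in EPR against mock (standard error 0.42, adjusted p = 1.1e-07), 3.34 in EPRSTOPE against mock (0.54, adjusted p = 0.00027) and 3.21 in EPR against EPRSTOPE (0.30, adjusted p = 7.6e-06). With 5 counts in all mock libraries the size of the increase is imprecise: the ratio of counts per library total was 95.5 for EPR (exact 95% interval 40.7 to 295) and 9.99 for EPRSTOPE (3.99 to 32.2), for counting error only. With counts scaled from TPM EPR against mock gave 4.55 (adjusted p = 0.0042), still called but a smaller change. The difference of EPRSTOPE from mock was then 1.89 with an adjusted p of 0.12, and that between EPR and EPRSTOPE 2.66 with an adjusted p of 0.058, so neither was called.

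In EPR cells 75.6% of the *Ehf* counts fell on the coding transcript Ehf-201, with 57.1% to 88.5% in single libraries. The coding transcript Ehf-203 took 11.6% in EPR cells and 55.9% in EPRSTOPE cells, where it ranged from 0 to 88.7% between libraries. Retained-intron transcripts held 2.67% (Ehf-205) and 4.71% (Ehf-206) of the counts in EPR cells.

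*Elf3* (ENSMUSG00000003051, chromosome 1, 135253575 to 135258568, minus strand) encodes an ETS factor of differentiating epithelia such as gut and epidermis. It had 40, 71 and 65 counts in mock, 195, 140 and 201 in EPR and 178, 319 and 260 in EPRSTOPE libraries. In CPM the mock libraries were at 5.27 to 7.47, the EPR libraries at 17.0 to 18.7 and the EPRSTOPE libraries at 29.8 to 34.0, so that none of the 3 conditions overlapped. *Elf3* rose 2.83-fold in EPR cells (log2 fold change 1.50, standard error 0.14, adjusted p = 2.3e-06) and 4.98-fold in EPRSTOPE cells (2.32, 0.13, adjusted p = 4.1e-08). Unlike *Ehf*, it was lower in EPR than in EPRSTOPE cells (log2 fold change -0.82, standard error 0.12, adjusted p = 0.00031). With counts scaled from TPM neither EPR against mock (1.12, adjusted p = 0.012) nor EPR against EPRSTOPE (-0.63, adjusted p = 0.16) passed.

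The coding transcript Elf3-202 carried 70.5% of the *Elf3* counts in mock cells, 68.8% in EPR cells and 59.8% in EPRSTOPE cells, and Elf3-201, also coding, carried 15.8%, 26.0% and 38.6%. The retained-intron transcript Elf3-203 took 13.7% of the counts in mock cells, 5.21% in EPR cells and 1.69% in EPRSTOPE cells. These shares spread widely, and Elf3-201 ran from 9.75% to 54.8% among the EPRSTOPE libraries. The antisense gene *Gm26642* overlaps *Elf3* and had at most 22 counts in a library. Whether the quantification used strand is not given in the sources used here, so reads of the pair may not be separated.

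**Figure D3:**
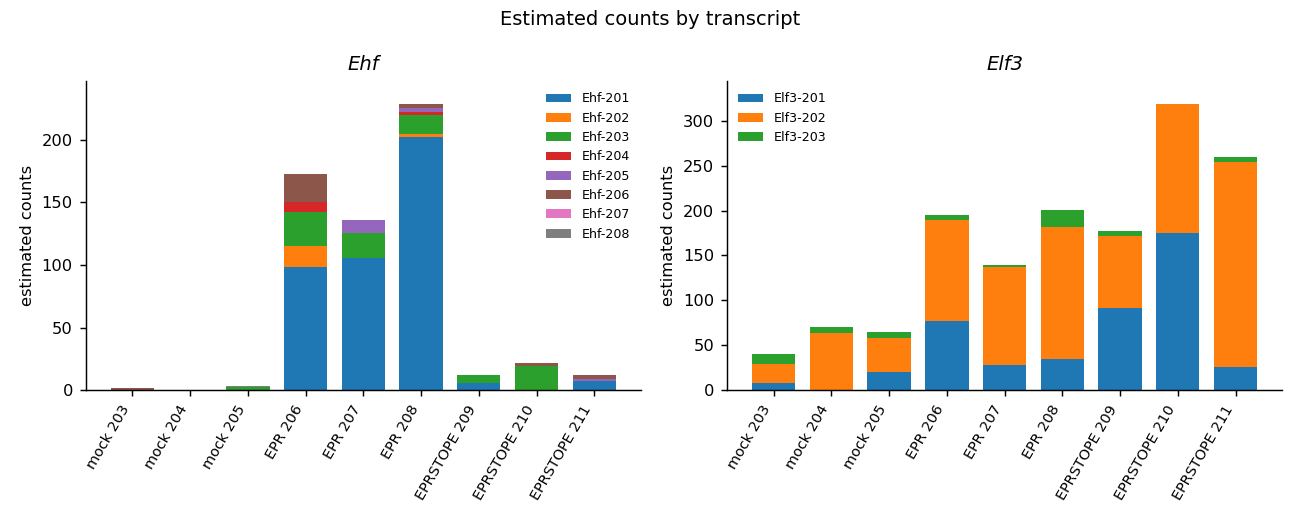
Estimated counts per library, not scaled for depth, stacked by transcript for *Ehf* and *Elf3*. Ehf-201 makes up most of the *Ehf* bar in the EPR libraries, and the split between Elf3-201 and Elf3-202 varies between libraries of one condition.

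*Elf5* (ENSMUSG00000027186, chromosome 2, 103411688 to 103450989, plus strand), the alveolar factor, lies near *Ehf* on the chromosome and was called in none of the 3 comparisons. It had 4, 14 and 13 counts in mock, 11, 12 and 21 in EPR and 2, 11 and 7 in EPRSTOPE libraries, and all conditions overlapped. The log2 fold change was 0.45 in EPR (standard error 0.48, adjusted p = 0.49) and -0.41 in EPRSTOPE against mock (0.53, adjusted p = 0.56), with 0.85 between EPR and EPRSTOPE (0.51, adjusted p = 0.24). The exact 95% interval of the ratio of counts per library total, for counting error only, was 0.779 to 2.07 for EPR against mock, 0.379 to 1.27 for EPRSTOPE against mock and 1.04 to 3.23 for EPR against EPRSTOPE. Most of its counts, 80.8% in mock cells, 71.0% in EPR cells and 84.6% in EPRSTOPE cells, fell on the retained-intron transcript Elf5-204, and the coding transcript Elf5-201 had 4.0 estimated counts over all mock libraries.

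*Klf4* (ENSMUSG00000003032, chromosome 4, 55527143 to 55532466, minus strand) was the most abundant of the 10 genes in every condition and was quantified most precisely. Its 3 conditions did not overlap, with 40.3 to 44.5 CPM in mock, 71.2 to 80.7 CPM in EPR and 104 to 109 CPM in EPRSTOPE libraries. It rose 1.82-fold in EPR (log2 fold change 0.86, standard error 0.07, adjusted p = 7e-07) and 2.5-fold in EPRSTOPE cells (1.32, 0.07, adjusted p = 1.4e-08). EPR against EPRSTOPE gave -0.46 (0.07, adjusted p = 0.00024), which passed on p but not on the fold limit. The transcript Klf4-201 carried 94.5% of the counts in mock cells, 97.0% in EPR cells and 98.2% in EPRSTOPE cells.

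*Klf5* (ENSMUSG00000005148, chromosome 14, 99298691 to 99315036, plus strand) had the smallest of the increases called. The mock libraries were at 16.1, 18.1 and 13.9 CPM, the EPR libraries at 27.3, 27.6 and 21.2 CPM and the EPRSTOPE libraries at 24.3, 22.1 and 25.01 CPM. Both overexpressing conditions were above mock without overlap, and they overlapped each other. *Klf5* rose 1.58-fold in EPR (log2 fold change 0.66, standard error 0.13, adjusted p = 0.0013) and 1.48-fold in EPRSTOPE cells (0.57, 0.13, adjusted p = 0.0039), and EPR against EPRSTOPE gave 0.09 (0.13, adjusted p = 0.64). The call in EPRSTOPE against mock was lost when EPRSTOPE library 209 or 211 or mock library 203 or 205 was left out (adjusted p = 0.012, 0.016, 0.011 and 0.022). With counts scaled from TPM the log2 fold changes were larger, 0.83 in EPR and 0.73 in EPRSTOPE against mock, but neither passed (adjusted p = 0.01 and 0.018).

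The neighbours of *Klf5* on chromosome 14 were shifted in the same direction. The median log2 fold change of the 90 nearest tested genes was 0.63 in EPR and 0.85 in EPRSTOPE against mock, beside 0.66 and 0.57 for *Klf5* itself. Of these neighbours 46.7% were called higher in EPR and 58.9% in EPRSTOPE. They spanned positions 72537946 to 122984035, and the chromosome as a whole was shifted as well. The median over 489 other tested genes of chromosome 14 was 0.49 in EPR and 0.59 in EPRSTOPE against mock. For *Ehf* the median of the 100 nearest tested genes was 0.04 in both comparisons, for *Elf3* 0.07 and 0.01, for *Klf4* -0.14 and 0.05, and for *Grhl1* -0.33 and -0.13. The changes of *Ehf*, *Elf3* and *Klf4* lay above the upper quartile of their neighbours in both comparisons with mock, and that of *Klf5* did not. The part of the neighbourhood and of the chromosome in the *Klf5* result was not tested.

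**Figure D4:**
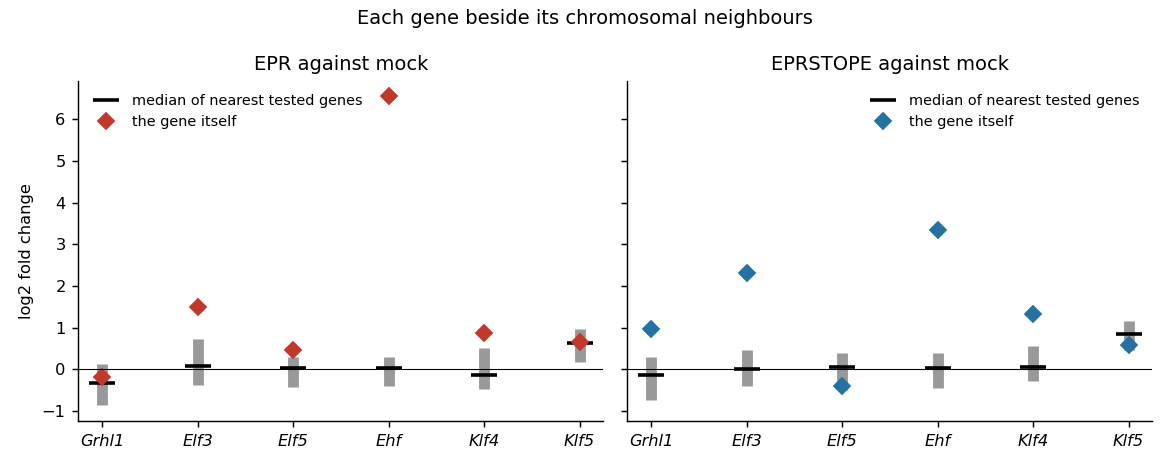
Log2 fold change against mock of each tested gene (diamonds) beside the median (black lines) and quartiles (grey bars) of its nearest tested genes, 50 on each side where the chromosome has them. *Klf5* lies within the quartiles of its neighbours, whose medians are 0.63 and 0.85, whereas *Ehf* and *Elf3* lie above theirs.

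*Grhl1* (ENSMUSG00000020656, chromosome 12, 24572283 to 24617391, plus strand) was the only gene of the 10 called in EPRSTOPE but not in EPR against mock. It was at 4.18, 6.10 and 6.003 CPM in mock, 5.40, 4.28 and 4.75 CPM in EPR and 10.1, 10.5 and 11.4 CPM in EPRSTOPE libraries. The EPRSTOPE libraries stood above all others, while mock and EPR overlapped. *Grhl1* rose 1.94-fold in EPRSTOPE cells (log2 fold change 0.96, standard error 0.19, adjusted p = 0.0012), whereas EPR against mock gave -0.19 (0.20, adjusted p = 0.48). The direct comparison of EPR with EPRSTOPE gave -1.14 (0.19, adjusted p = 0.00074). With counts scaled from TPM the last 2 values were 0.17 (adjusted p = 0.82) and -1.05 (adjusted p = 0.092), and the increase in EPRSTOPE of 1.22 did not pass (adjusted p = 0.026). The coding transcript Grhl1-202 held 71.2% of the counts in mock cells, 22.7% in EPR cells and 55.2% in EPRSTOPE cells, and its share ran from under 1% to 41.7% among the EPR libraries.

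The other grainyhead-like genes and the *Ovol* genes were hardly detected. *Grhl2* (ENSMUSG00000022286, chromosome 15), the factor best known for sustaining *Cdh1* expression, had 0, 5 and 6 counts in mock, 10, 6 and 12 in EPR and 2, 12 and 1 in EPRSTOPE libraries. The EPR libraries were at 0.755 to 1.12 CPM and above the mock libraries, at 0 to 0.526 CPM, while EPRSTOPE overlapped both. The ratio of counts per library total was 2.26 for EPR against mock (exact 95% interval 1.09 to 5.04) and 1.48 for EPRSTOPE against mock (0.636 to 3.57), for counting error only. Of the few *Grhl2* counts, 82.3% in mock cells, 53.5% in EPR cells and 75.8% in EPRSTOPE cells fell on the noncoding transcript Grhl2-205. The chromosome as a whole was shifted, with a median log2 fold change of 0.49 in EPR and 0.51 in EPRSTOPE against mock over 526 tested genes of chromosome 15, and its part in the *Grhl2* counts was not tested.

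*Grhl3* (ENSMUSG00000037188, chromosome 4), a factor of epidermal closure, had 0 to 2 counts in every library. *Ovol1* (ENSMUSG00000024922, chromosome 19) had 2 counts in 1 mock library and none in the other 8 libraries. *Ovol2* (ENSMUSG00000037279, chromosome 2) had 0 counts in all 9 libraries, which allows a level of up to 0.0363 CPM over the 82559227 counts of the 9 libraries together. These genes were below the filter, and no fold change is given for them. In the same libraries *Cdh1* was at 555 ± 14 CPM with EPR and 402 ± 23 CPM with EPRSTOPE (SD, n = 3 each), beside *Ovol1* and *Ovol2* at 0 and *Grhl2* at most 1.28 CPM in a library.

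Other factors of the same families were examined as well. For the counts of calls in the gene lists from here on, the background is that of all tested genes. It was 15.2% higher and 12.9% lower in EPR, and 15.6% higher and 12.4% lower in EPRSTOPE against mock. Of the 3 other grainyhead family genes, *Tfcp2* rose in EPR (log2 fold change 0.63, adjusted p = 0.0093) and EPRSTOPE cells (0.79, adjusted p = 0.0025), and *Tfcp2l1* fell in EPRSTOPE cells (-0.91, adjusted p = 0.00016) and was at -0.44 in EPR cells (adjusted p = 0.017). The difference of *Tfcp2l1* between EPR and EPRSTOPE did not pass (0.48, adjusted p = 0.022), and *Ubp1* was at -0.24 and -0.26 against mock (adjusted p = 0.05 and 0.032). *Ovol3* was below the filter.

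Of the 23 other ETS genes 15 were tested, of which 3 rose and 3 fell in EPR and 4 rose and 2 fell in EPRSTOPE against mock. The median log2 fold changes of the 15 genes were -0.20 and -0.13, beside -0.01 and -0.04 over all tested genes. *Ets2*, a broadly expressed ETS activator, rose from 147 ± 3 CPM to 395 ± 6 CPM in EPR and 300 ± 13 CPM in EPRSTOPE cells. *Elf1*, a relative of *Elf3* and *Elf5* that is not restricted to epithelia, rose by 1.33 in EPR and 0.59 in EPRSTOPE cells on the log2 scale and was higher in EPR than in EPRSTOPE (0.74, adjusted p = 2.9e-05). *Etv3* rose by 1.25 and 0.84, and *Etv6* was at -0.72 in EPR, which passed, and -0.45 in EPRSTOPE against mock, which did not pass the fold limit.

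Of the 15 other KLF genes 8 were tested, and *Klf3* was the 1 that rose in each comparison with mock (0.80 and 0.82). *Klf7* fell in EPRSTOPE (-0.53, adjusted p = 0.0024) and was at -0.41 in EPR (adjusted p = 0.01). *Klf6* was at -0.41 and -0.21 and *Klf9* at 0.47 and 0.22 against mock, and neither was called. Between EPR and EPRSTOPE 3 of the 8 genes were called lower in EPR, *Klf10* (-0.54), *Klf13* (-0.50) and *Klf16* (-0.73), and 0 higher. Of all tested genes 6.35% were lower and 6.86% higher in this comparison. *Klf7* (0.12) and *Klf9* (0.25) lay on the other side and were not called.

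Of 8 EMT factors 6 were tested. In EPR cells 3 fell and none rose, and in EPRSTOPE cells 2 fell and 1 rose. *Snai2*, a repressor of *Cdh1*, fell by 1.50 in EPR and by 1.03 in EPRSTOPE cells on the log2 scale, and *Twist2* fell by 1.44 and by 1.12. *Zeb2* fell in EPR cells (-0.78, adjusted p = 2.9e-05) and was at -0.39 in EPRSTOPE cells (adjusted p = 0.0048), under the fold limit. *Snai1* rose in EPRSTOPE cells (1.59, adjusted p = 0.00045) and was at 0.76 in EPR cells (adjusted p = 0.041). *Zeb1*, named in addition after its values were seen because OVOL and GRHL factors are known to oppose it, was at 53.9, 49.4 and 49.98 CPM in mock, EPR and EPRSTOPE cells (log2 fold change -0.13 and -0.11 against mock, adjusted p = 0.23 and 0.29).

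Among 17 other epithelial or mammary factors, 11 were tested, with 2 rising and 1 falling in EPR and 3 rising and 3 falling in EPRSTOPE against mock. *Foxa1*, a luminal pioneer factor, had 226 counts in the mock libraries, 7 in the EPR and 2 in the EPRSTOPE libraries, a ratio of counts per library total of 0.0275 (exact 95% interval 0.011 to 0.0577) and 0.00961 (0.00116 to 0.0351). *Foxa1* passed the filter only through the mock libraries, so a higher level in mock cells was built into the filter. *Stat5a*, the transducer of prolactin signalling, rose by 1.63 in EPR and 1.86 in EPRSTOPE cells on the log2 scale. *Gata3* was at -1.29 and -1.44 against mock (adjusted p = 0.042 and 0.032) and was not called.

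Epithelial effector genes are mostly junction and surface genes that these factors are known to activate, with others such as the splicing factor gene *Esrp2*. Of 20 such genes, 11 were below the filter. Of the 9 tested, 7 were called higher in EPR and 5 in EPRSTOPE cells. *Cdh1*, *Epcam*, *Ocln* and *Tjp3* passed the filter only through libraries in which they are high, so a higher level in those libraries was built into the filter. Of the other 5, which were also present in mock cells, *F11r* (0.79 and 0.79 on the log2 scale), *Spint2* (2.31 and 1.88) and *Esrp2* (1.43 and 0.86) rose in EPR and EPRSTOPE cells, and *Lad1* (-0.34 and -0.31) and *St14* (-0.02 and 0.06) were not called. *Cdh1* rose by 9.23 and 8.76 and *Ocln*, a tight junction gene, by 5.27 and 4.52 on the log2 scale. *Epcam* had no mock count and was at least 33.5-fold higher in EPR cells, against the limit of 3 counts over the mock libraries, while EPRSTOPE cells held 3 counts in all. *Tjp3* rose in EPR cells (3.21, adjusted p = 0.00014) and was at 0.75 in EPRSTOPE cells (adjusted p = 0.3). Of the 9 tested genes, 3 were called higher in EPR than in EPRSTOPE and 0 lower, beside 6.86% and 6.35% of all tested genes. The 3 were *Epcam* (4.74, adjusted p = 0.00033), *Tjp3* (2.46, adjusted p = 0.0015) and *Esrp2* (0.57, adjusted p = 0.0039). *Epcam* and *Tjp3* passed the filter only through the EPR libraries, so their higher level in EPR cells was built into the filter. The 11 genes below the filter included *Cldn3*, *Cldn4*, *Cldn7* and *Esrp1*, each with no count in mock and EPRSTOPE cells and 2 to 6 counts in EPR cells.

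Barrier differentiation genes were tested for 6 of 14, of which 4 rose in EPR and 3 rose and 1 fell in EPRSTOPE cells. *Krt6a* had no mock count and was at least 91.6-fold higher in EPR and at least 64.8-fold higher in EPRSTOPE cells, and *Ivl*, the gene for involucrin, rose by 3.18 and 3.12 on the log2 scale. *Sprr1a*, a cornified envelope gene, moved in opposite directions, by 1.85 in EPR and -1.24 in EPRSTOPE against mock, with 3.08 between EPR and EPRSTOPE (adjusted p = 1.3e-08). Its relative *Sprr1b* rose in both (1.58 and 2.66) and was lower in EPR than in EPRSTOPE cells (-1.09, adjusted p = 8.9e-06). *Krt6a* and *Ivl* passed the filter only through the overexpressing libraries. *Lor* was at -2.07 and -0.53 (adjusted p = 0.018 and 0.48). None of the 8 milk list genes, which are part of the alveolar program and include the prolactin receptor gene *Prlr*, reached the filter. Each had at most 15 counts over the 3 libraries of a condition.

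**Figure D5:**
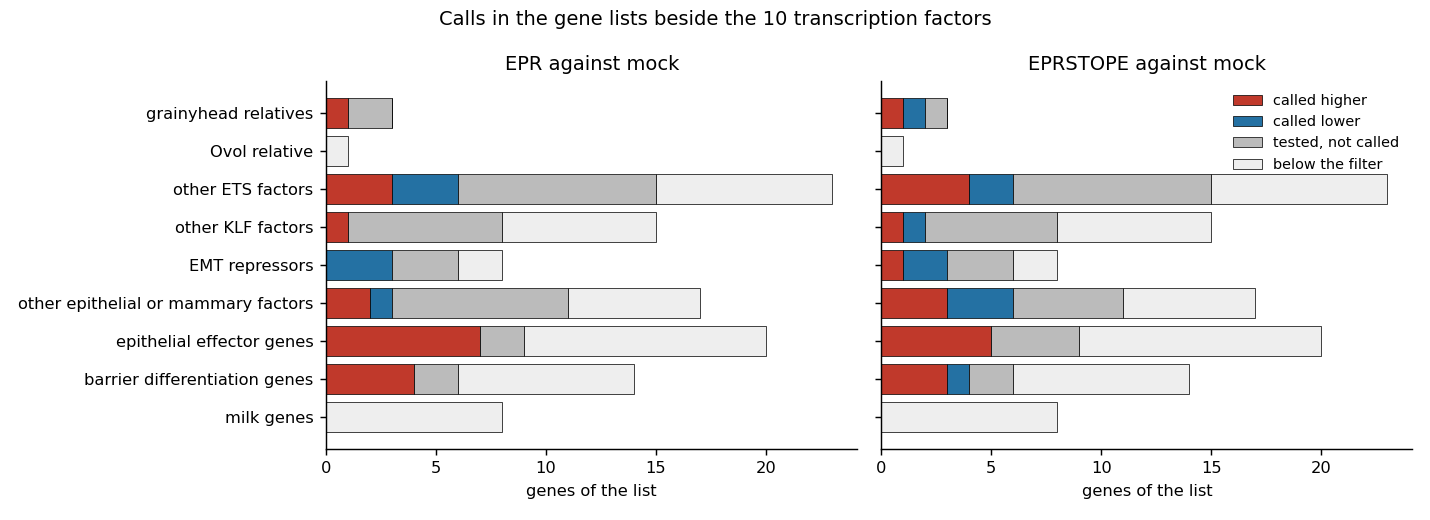
Number of genes of each list called higher, called lower, tested but not called, or below the filter, in EPR and EPRSTOPE against mock. Epithelial effector genes are called in the higher direction (7 and 5 of 9 tested), beside 15.2% and 15.6% of all tested genes. Of these effector genes *Cdh1*, *Epcam*, *Ocln* and *Tjp3* passed the filter only through libraries in which they are high. Other ETS factors are called in both directions, and the 8 genes of the milk list are all below the filter.

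The profiles most like those of the 3 most abundant genes over the 9 libraries were sought among 9310 genes averaging 10 CPM or more, as a description over libraries that share their condition and depth. For *Klf4* they were *Anxa7* (r = 0.997), *Arhgef40* (0.995) and *Sox13* (0.995), all lowest in mock and highest in EPRSTOPE cells. For *Elf3* they included *Sod3* (0.995) and *Hexa* (0.994), with the same order of conditions. *Klf5* was most like *Lmtk2* (0.989), *Slc12a4* (0.985) and *Shb* (0.983), in which EPR and EPRSTOPE cells were close to each other.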

How the data were processed

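RNA-Seq (TruSeq Stranded Total RNA, paired reads) of 3 mock, 3 EPR and 3 EPRSTOPE libraries was analysed. Conditions came from the genotype labels, and the numbers 203 to 211 in the titles name the libraries. Per the submitters' processing notes and the methods, bcl2fastq 2.0 and Kallisto 0.43.1 with Gencode vM15 transcripts (GRCm38.p5) were used. For 131100 transcripts the authors deposited estimated counts, which are not normalized, and TPM values, which they scaled by effective length.

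Estimated counts were added up per symbol and rounded. A filter of 1 CPM in 3 or more libraries left 15370 genes, which entered a single fit of 3 conditions in edgeR 4.0.16 (R 4.3.3), with TMM factors and library sizes over these genes. CPM values use the full library total and the TMM factor, and standard errors derive from the quasi-likelihood F statistic. Windows before start sites came from RefSeq (GRCm38.p6) and positions from Gencode M21 (GRCm38), which covered 15345 of the tested genes. Other steps used Python 3.11.15 (scipy 1.17.1, matplotlib 3.10.9, numpy 2.4.6, pandas 2.3.3).

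The 10 genes and the lists were chosen with earlier results of these data known. All 10 were named in every comparison. From each list the text names up to 4 tested genes with the largest change in EPR against mock and any gene called in opposite directions against mock. For each of the 3 most abundant of the 10 genes it names the 3 genes with the most similar log2 CPM. *Zeb1*, *Klf10*, *Klf13*, *Klf16*, *F11r*, *Spint2*, *Esrp2*, *Lad1*, *St14*, *Sprr1b*, the marker genes and the genes near 0 were added after their values were seen. Some genes that these rules select are not reported here. Other marker lists summed to 10.4 to 11.8, 1.26 to 1.83 and 2.75 to 3.41 CPM in mock, EPR and EPRSTOPE libraries (6 basal genes), 3898 to 4082, 2125 to 2354 and 3849 to 4204 CPM (9 mesenchymal), 1.54 to 2.94, 2.61 to 3.82 and 2.13 to 2.53 CPM (5 immune) and 11.1 to 12.2, 11.8 to 15.6 and 11.7 to 17.2 CPM (4 endothelial).

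The fit was tested on simulated counts of the 15370 genes, 200 of them changed by a log2 fold change of 1.5 in EPR against mock. It recovered 152 with 2 false calls: 8 of 49 under 5 CPM, 31 of 36 from 5 to 20 CPM and 113 of 115 above. In single libraries 3 counts correspond to 0.253 to 0.502 CPM. Intervals and limits cover counting error only. Alternatives were limma-voom (limma 3.58.1), DESeq2 1.42.0, RLE size factors, no filter, a minimum of 10 counts throughout, counts rescaled from TPM, fits of the compared conditions alone, other thresholds and the omission of single libraries.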

Additional observations from a re-analysis of the deposited data

How the results depend on the processing

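Of the log2 fold changes of the 6 tested genes, 261 values under alternatives kept their direction and their side of the threshold, 17 kept the direction but were no longer called, and 1 reversed: *Grhl1* in EPR against mock was 0.17 with counts scaled from TPM (adjusted p = 0.82). With that scaling 2 of the 10 genes were called in EPR against mock, 2 in EPRSTOPE against mock and 0 in EPR against EPRSTOPE by edgeR's quasi-likelihood test (in the last, 1 higher and 3 lower at an unadjusted p below 0.05), and 2258, 2337 and 482 of all genes. With a log2 fold change beyond 1 the numbers were 2 and 3 of the 10 genes against mock, and 2296, 2373 and 1001 of all genes. Other counts of calls were within 1.5 times those reported. Library sizes over all genes, an alternative chosen after seeing the data, gave 4, 5 and 3 of the 10 genes and 4311, 4308 and 2029 of all genes. Why the scaling changed the calls was not tested. *Elf3* in EPRSTOPE against mock ran from 1.75 to 2.47 over the alternatives and *Klf4* from 1.17 to 1.36. No paired analysis was possible because the library numbers are not shared between conditions. Depth limits *Elf5*, *Grhl2*, *Grhl3*, *Ovol1* and *Ovol2* in all conditions and *Ehf* in mock cells.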
